A study of Homo sapiens with 4 samples.

Results

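The response of ZNF521-overexpressing DAOY cells to SAG was read from 2 of the 4 RNA-sequencing libraries of the series, the one of these cells with SAG and the one with the vehicle DMSO, with 1 library a side. Of the 20363 genes in the count table, the 15211 with at least 10 read counts in at least 1 of both libraries were compared. DAOY is a cell line derived from a human medulloblastoma, and ZNF521 is a zinc finger co-factor of transcription. ZNF521 cells received a lentiviral vector in which the ubiquitin C promoter drives ZNF521 and, after an internal ribosome entry site, EGFP, and the study's methods describe sorting to more than 90% EGFP-positive cells and list both human and mouse ZNF521 constructs. The controls (CTL) are called wild type in the deposited design and control-vector cells in the paper, so which of these was sequenced is not settled. SAG, a small molecule agonist of SMO, was given for 48 h after 24 h of starvation, at 2.5 to 200 nM over the experiments of the study, and the dose of the sequenced cells is not named. Total counts were 13366535 with DMSO and 16314685 with SAG in ZNF521 cells, and 13468912 and 12294833 in CTL cells.

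Hedgehog ligands bind the receptor PTCH1, which otherwise keeps the membrane protein SMO silent. Once SMO is active in the primary cilium, the GLI transcription factors are released from SUFU and from processing into repressors, and they switch on target genes. Several targets, among them PTCH1 and HHIP, restrain the pathway again, and GLI1 reinforces it. In the cerebellum this pathway drives the growth of granule cell precursors, from which the SHH type of medulloblastoma arises.

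Each value below is a normalized read count, which is the count divided by the authors' size factor of its library, and each ratio is SAG over DMSO. With 1 library a side no test was possible and the spread between cultures is unknown. Brackets hold the exact 95% Clopper-Pearson interval of a ratio, which covers counting error only, and reads amplified by PCR without molecular identifiers are not independent molecules. A gene is counted as higher or lower when its ratio was at least 1.5-fold and its interval left out 1. ZNF521 mRNA stood at 2013 with DMSO and 2072 with SAG in ZNF521 cells, a log2 ratio of 0.04 [-0.04, 0.13], and at 713.7 and 751 in CTL cells. ZNF521 was thus above the controls on both sides. Reads of the vector and of the cells' own gene were not told apart, and CTL cells also express ZNF521.

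SAG went with higher levels of a small group of genes in ZNF521 cells, among them feedback genes of the Hedgehog pathway, and most of the transcriptome stayed close to a ratio of 1. Of 15211 genes, 166 were higher (1.09%) and 247 were lower (1.62%), and 75 and 84 were at least 2-fold higher or lower. The median log2 ratio of all genes was 0.01, with quartiles at -0.15 and 0.16. Most of the calls came from thinly counted genes, since 92 of the higher and 146 of the lower genes had a mean normalized count under 50. Among the 9152 genes with a mean of at least 200, 29 were higher and 6 lower, and 95% of log2 ratios lay between -0.34 and 0.36. By type of gene, 136 of 14034 protein-coding genes were higher and 205 lower, against 22 and 27 of 823 long non-coding RNAs.

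**Figure D1:**
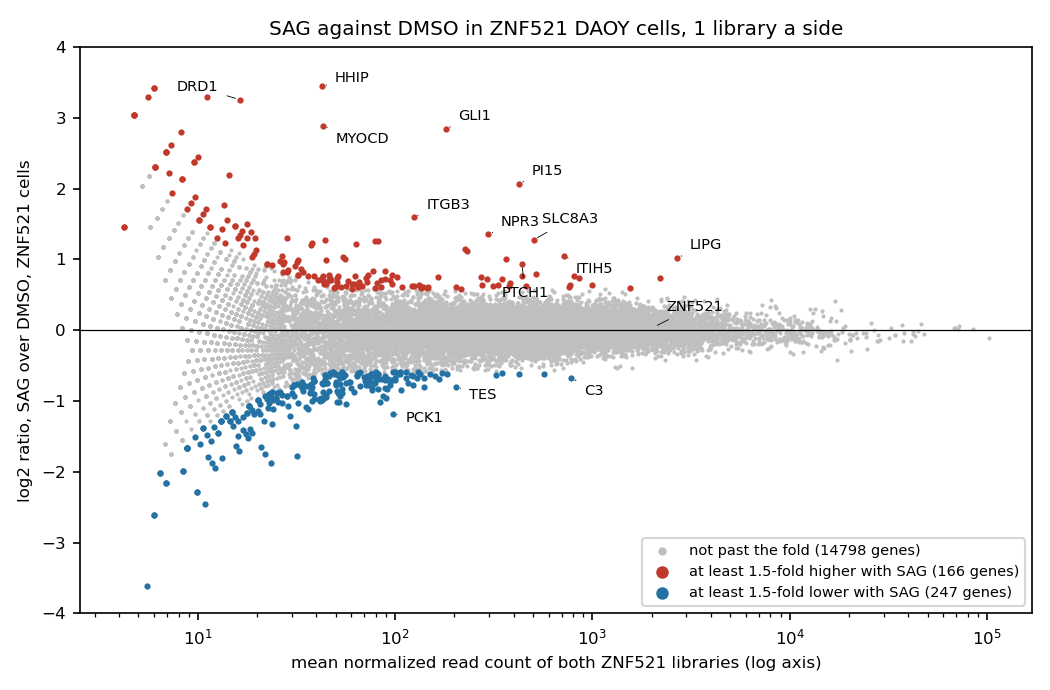
Log2 ratio of SAG over DMSO in ZNF521 cells (vertical axis) against the mean normalized read count of both libraries (horizontal log axis), 1 point for each of 15211 genes, with 166 higher genes in red and 247 lower genes in blue. GLI1, HHIP, MYOCD and PI15 lie far above the bulk, while ZNF521 itself lies at 0.04.

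Hedgehog feedback genes were higher with SAG. GLI1 (chromosome 12 of hg38, 57459785 to 57472268, plus strand) had a normalized count of 44.2 with DMSO and 318 with SAG, which is 7.19-fold [5.23, 10.1]. In CTL cells GLI1 stood at 75.4 and 324, so that both SAG libraries were above both DMSO libraries. HHIP, a membrane protein that traps Hedgehog ligands (chromosome 4, 144646156 to 144745271, plus strand), was at 7.2 with DMSO and 78.5 with SAG. This is 10.9-fold [5.08, 27.8], a wide interval since only 7 reads stood behind the DMSO value, against 93 with SAG. PTCH1, the receptor itself (chromosome 9, 95442980 to 95517057, minus strand), was at 301 with DMSO and 579 with SAG, 1.92-fold [1.67, 2.21], while CTL cells stood at 468 and 527. For PTCH1 the DMSO library of ZNF521 cells was the lowest of the 4, and the SAG library of the same cells the highest.

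Most of the other receptor and ligand genes lay within 1.5-fold of their DMSO level. SMO, the target of SAG, stood at 2671 with DMSO and 2316 with SAG (log2 ratio -0.21 [-0.28, -0.13]). The ligand co-receptors BOC (2917 and 2776, -0.07) and CDON (268 and 292, 0.13) were within a small distance of 0. GAS1, the third co-receptor, stood at 637 with DMSO and 442 with SAG, a log2 ratio of -0.53 [-0.70, -0.36] beyond counting error but under 1.5-fold. DISP1, which releases Hedgehog ligands from the cells that make them, was higher at 86.4 against 132 (0.61 [0.21, 1.01]). SHH and IHH, both ligands, had under 10 counts in each of both libraries and DHH stood at 10.3 and 7.59. Of the 13 receptors, co-receptors and ligand traps compared, 3 were higher (PTCH1, HHIP and DISP1), none was lower, and the median log2 ratio was 0.06 against 0.01 over all genes. The call of DISP1 was lost once GC content was adjusted for (0.56). With the same adjustment the log2 ratio of SMO was -0.02 and that of GAS1 -0.37.

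GLI1 was also the only GLI factor whose mRNA was past the fold. GLI2, the main activator of the pathway in many cells, stood at 172 with DMSO and 159 with SAG (-0.12 [-0.42, 0.19]). GLI3, which acts mainly as a repressor, stood at 625 and 652 (0.06 [-0.09, 0.22]), and SUFU, which holds GLI proteins in the cytosol, at 339 and 327 (-0.05 [-0.26, 0.17]). Per kilobase of the longest GENCODE transcript, GLI1 had a normalized count of 11.1 with DMSO, below GLI2 at 24.1 and GLI3 at 74.3. With SAG it had 80.1 against 22.2 and 77.6, and so GLI1 moved from the least abundant of the 3 mRNAs to a level like that of GLI3. Of 18 GLI factors and their cytosolic and ciliary brakes, GLI1 was the 1 called, and the median log2 ratio was 0.04. Of the others, the intervals farthest from 0 were those of PRKACB, GSK3B and SPOP. PRKACB, a catalytic subunit of protein kinase A, had 0.31 [0.18, 0.44]. GSK3B, a kinase that phosphorylates GLI proteins for processing, had 0.25 [0.14, 0.36], and SPOP, an adaptor for their degradation, 0.22 [0.10, 0.34].

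**Figure D2:**
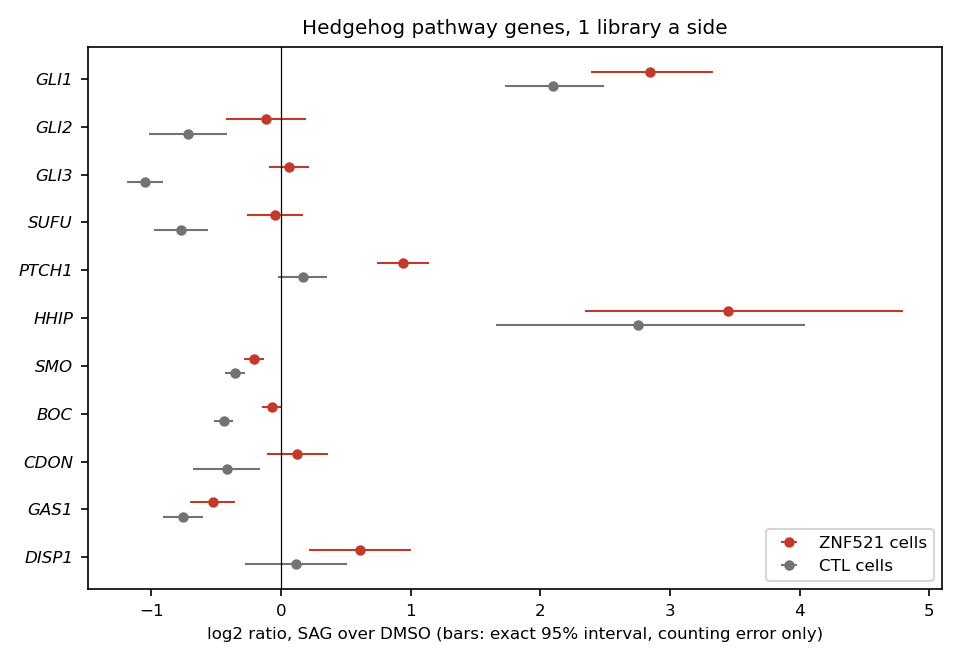
Log2 ratio of SAG over DMSO (horizontal axis) for 11 Hedgehog pathway genes, in ZNF521 cells (red) and CTL cells (grey), with bars for the exact 95% interval of counting error. In ZNF521 cells GLI1 (2.85), HHIP (3.45), PTCH1 (0.94) and DISP1 (0.61) are past the fold, and GLI2, GLI3 and SUFU lie between -0.12 and 0.06.

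The study names the consensus GACCACCCA for GLI factors, and these letters were searched on both strands (TGGGTGGTC on the opposite one) in RefSeq promoters of GRCh38.p14, from 250 bases before to 50 after the start of each gene. Of the genes compared, 11623 had an entry. The consensus was in 24 of these (0.206%), in 1 of the 119 higher genes with an entry (0.84%) and in 0 of the 154 lower ones. The higher gene with it was PTCH1, and the match began 172 bases before the start on the opposite strand. The 250 bases before the start of PTCH1 and of HHIP, the feedback genes with an entry, are shown to place the match, with the letters of the consensus in capitals and each sequence 5′ to 3′ on the strand of its gene. They are PTCH1 at chr9:95509267-95509516 (minus strand) and HHIP at chr4:144645906-144646155 (plus strand), and the one for HHIP holds no match. The RefSeq start of PTCH1 used here lies within the gene as GENCODE annotates it.
PTCH1: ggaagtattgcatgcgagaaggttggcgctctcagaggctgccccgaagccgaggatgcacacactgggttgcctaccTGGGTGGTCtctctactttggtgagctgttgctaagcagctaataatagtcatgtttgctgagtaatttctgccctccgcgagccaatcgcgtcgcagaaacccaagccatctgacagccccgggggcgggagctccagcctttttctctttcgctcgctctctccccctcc
HHIP: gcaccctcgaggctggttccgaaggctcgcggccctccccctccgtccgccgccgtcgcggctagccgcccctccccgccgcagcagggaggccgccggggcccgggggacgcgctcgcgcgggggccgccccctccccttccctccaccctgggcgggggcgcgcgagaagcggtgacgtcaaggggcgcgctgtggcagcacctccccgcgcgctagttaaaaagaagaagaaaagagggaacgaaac
A match describes these letters and does not by itself show a site in use, and binding in the sequenced cells was not tested. The PTCH1 sequence also holds the reverse complement of the reverse primer that the study used in chromatin immunoprecipitation of this promoter. In transfected cells the study recovered that region with tagged GLI1 and with tagged ZNF521, and it numbers its GLI site farther from the start. GLI1, MYOCD and ITGB3 had no entry.

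Some of the genes known elsewhere as Hedgehog targets were also higher. Of 45 target genes compared, 5 were higher and 1 was lower, beside 1.09% and 1.62% of all genes, 29 lay above 0, and the median log2 ratio was 0.12 against 0.01 over all genes. The higher ones were GLI1, HHIP, PTCH1, PDGFRA and CDK6. PDGFRA, a receptor tyrosine kinase for platelet-derived growth factor, stood at 46.3 with DMSO and 111 with SAG (2.41-fold [1.70, 3.45]). CDK6, a kinase of the G1 phase, was at 1238 and 1862, a log2 ratio of 0.59 [0.49, 0.69] at the edge of 1.5-fold. LGR5, a receptor for R-spondins and a stem cell marker, was the lower one, at 18.5 and 3.37, which rests on few reads. Among targets of cell growth, CCND1, a G1 cyclin, had a small ratio, at 967 and 1089 (0.17 [0.05, 0.29]). MYCN, a driver of granule cell precursors, stood at 40.1 and 24.5, a log2 ratio of -0.71 past 1.5-fold. Its interval of -1.46 to 0.02 held 0, so MYCN was not called. BCL2, which blocks apoptosis (0.55), SPP1, the matrix protein osteopontin (0.47), SOX2, a stem cell factor (0.39), and SNAI2, a repressor of epithelial genes (0.36), were above 0 beyond counting error but under 1.5-fold.

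A set of genes outside the pathway was higher with SAG by 2-fold or more, all but MYOCD with a mean of at least 50. PI15, a secreted peptidase inhibitor, had 164 with DMSO and 688 with SAG (4.20-fold [3.54, 5.01]), beside 123 and 615 in CTL cells. MYOCD, which co-activates smooth muscle genes with SRF, had 10.3 and 75.9 (7.38-fold [3.83, 15.9]). ITGB3, an integrin chain that binds vitronectin and osteopontin, had 61.7 and 187 (3.03-fold [2.27, 4.11]). In CTL cells ITGB3 stood at 125 and 193, so the SAG levels of the cell kinds were alike and the DMSO level was lower in ZNF521 cells. NPR3, the clearance receptor for natriuretic peptides, was at 167 and 428 (2.57-fold [2.15, 3.08]), and SLC8A3, a sodium/calcium exchanger, at 295 and 716 (2.43-fold [2.12, 2.78]). LIPG, an endothelial lipase, was the most abundant of them, at 1778 and 3613 (2.03-fold [1.92, 2.15]). ITIH5, which binds hyaluronan, had 467 and 963 (2.06-fold), and TENM2, an adhesion protein of the teneurin family, had 140 and 310 (2.22-fold). SCN9A, a voltage-gated sodium channel, had 146 and 318 (2.18-fold), IGFN1 had 243 and 487, and RNF152, a ubiquitin ligase of lysosomes, had 48.4 and 116 (2.39-fold). Every one of these 11 genes was higher with SAG than with DMSO in CTL cells too, with log2 ratios between 0.46 (TENM2) and 3.10 (MYOCD). The 11 are not all genes of this kind. MAGI2, at 37.0 and 74.2 in ZNF521 cells, was lower with SAG in CTL cells (68.4 and 54.1). NBPF20 and CACNB2, also 2-fold higher in ZNF521 cells, were higher in CTL cells (47.2 and 59.8, and 35.2 and 56.4).

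**Figure D3:**
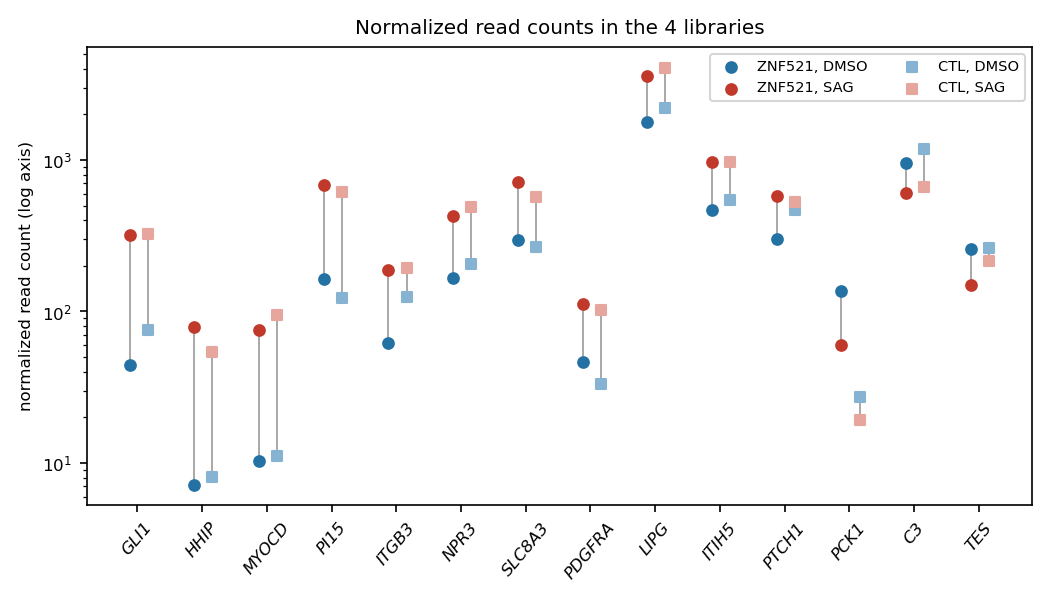
Normalized read counts (vertical log axis) of 14 genes in the 4 libraries, with circles for ZNF521 cells, squares for CTL cells, blue for DMSO and red for SAG, and a line joining the libraries of 1 kind of cells. GLI1, HHIP, MYOCD and PI15 have the longest lines, and the SAG values of ITGB3 (187 and 193) are closer together than the DMSO values (61.7 and 125).

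Between 1.5-fold and 2-fold, several signalling genes stood among the 29 higher genes of mean count at least 200. NR3C1, the glucocorticoid receptor, was at 1659.8 with DMSO and 2754 with SAG (1.66-fold [1.56, 1.76]). DKK1, a secreted WNT antagonist, was at 262 and 434 (1.66-fold [1.42, 1.93]), and TGFB2, a ligand of the TGF-beta family, at 603 and 936 (1.55-fold [1.40, 1.72]). HMGA2, an architectural chromatin protein, stood at 777 and 1208 (1.56-fold), and ITGA2, an integrin chain that binds collagen, at 604 and 921 (1.53-fold). KCNK10, a potassium channel, had 381 and 661 (1.74-fold), MGLL, a lipase of monoacylglycerols, 325 and 553 (1.70-fold), and SLC5A3, the myo-inositol transporter, 602 and 1018 (1.69-fold). MAP2K6, a kinase upstream of p38, and DUSP10, a phosphatase that acts on p38 and JNK, were both higher, at 1.55-fold and 1.54-fold. SCD5, a fatty acid desaturase (1.59-fold), OCLN, a tight junction protein (1.64-fold), and BHLHE41, a repressor of the circadian clock (1.69-fold), belong to the same range.

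Among genes with a mean of at least 200 the lower ones were fewer than the higher ones, and none of them was 2-fold lower. By its interval PCK1, the cytosolic enzyme of gluconeogenesis, headed the lower genes with a mean of at least 50, at 136 with DMSO and 59.9 with SAG (2.27-fold lower, log2 ratio -1.18 [-1.62, -0.75]), and stood at 27.1 and 19.2 in CTL cells. With SAG, PCK1 in ZNF521 cells was thus still above both CTL libraries. C3, the central complement protein, was the best counted, at 962 and 603 (-0.67 [-0.82, -0.53]), beside 1185 and 665 in CTL cells. TES, a LIM protein of focal adhesions, stood at 260.3 and 149 (-0.80 [-1.09, -0.52]), and CYP11A1, which starts steroid synthesis, at 114 and 59.9 (-0.93). CRACR2B, a regulator of store-operated calcium entry (-1.01), SHANK3, a scaffold of synapses (-0.84), and SLC9A3, a sodium/proton exchanger (-1.02), were at 112, 138 and 70.0 with DMSO. ODF3B (-0.96), HDDC3 (-0.80) and MAMDC4 (-0.62) were lower too, as was HIST2H2AA3 (-1.04), a histone gene with a near-identical copy among which reads may be split, so that its value is uncertain. CA2, a carbonic anhydrase (-0.61), CADM4, an adhesion molecule (-0.64), and HIST1H2BL, an H2B histone (-0.61), were the other lower genes with a mean of at least 200, beside C3, TES and MAMDC4. Levels of these genes come from the RNA of whole cultures, in which fewer cells of a type and less RNA per cell cannot be told apart.

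MYOCD stood apart from the genes it is known to co-activate. Of 23 smooth muscle contractile genes and MYOCD partners compared, MYOCD was the 1 higher gene, 0 were lower, and the median log2 ratio was -0.04. ACTA2, smooth muscle actin, stood at 437 with DMSO and 532 with SAG (0.28 [0.10, 0.46]), and TAGLN, transgelin, at 1024 and 888 (-0.20). MYH11, smooth muscle myosin, was at 72.0 and 51.5, and CNN1, calponin, at 188 and 172. After MYOCD, the intervals farthest from 0 were those of ITGA1, an integrin chain (0.47), SYNM, an intermediate filament protein (0.42), and SYNPO2, an actin-binding protein (-0.32). The same held for other families with 1 strongly higher member. NPR3 was the 1 called of 13 natriuretic peptide receptors and cGMP genes, of which PDE5A, a cGMP phosphodiesterase, had the next interval, at 0.51 [0.39, 0.63]. SLC8A3 was the 1 called of 11 calcium exchangers and pumps, and PDGFRA was called higher and PDGFRL lower of 7 genes of the PDGF list.

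Genes of ion channels, receptors and WNT signalling lay on both sides of 0, and their counts stand beside 1.09% higher and 1.62% lower over all genes. Of 90 potassium, sodium and calcium channel subunits, 5 were higher and 2 lower, with a median of -0.03. SCN9A, KCNK10, CACNB2, an auxiliary calcium channel subunit (38.1 and 88.6, 1.22 [0.67, 1.80]), and KCNIP1, a partner of potassium channels (22.6 and 53.2, 1.23), were higher, as was CACNA1D, a pore subunit of calcium channels (44.2 and 68.3). Of 18 aminergic receptors, 2 were higher and 4 lower. DRD1, a dopamine receptor, stood at 3.09 with DMSO and 29.5 with SAG, 9.57-fold [3.02, 48.6], and at 5.03 and 25.9 in CTL cells, and 3 reads stood behind its DMSO value. Of 48 genes of the WNT list 1 was higher, DKK1, and 6 lower. The lower ones included the ligand WNT6 at 37.0 and 10.1 (-1.87 [-2.95, -0.90]) and the ligands WNT5B (-0.73) and WNT10A (-0.62).

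Some lists with few or no called members had medians away from that of all genes, of which 1.62% were called lower. Among 40 interferon-stimulated genes 34 lay below 0 and none was called, with a median log2 ratio of -0.15. IRF7, a regulator of the interferon response, stood at 1889 with DMSO and 1301 with SAG (-0.54 [-0.64, -0.44]), and ISG15, a ubiquitin-like modifier, at 19834 and 14751 (-0.43 [-0.46, -0.40]). In CTL cells IRF7 stood at 1425 and 1199.9 and ISG15 at 12237 and 12419, so that for both genes the DMSO library of ZNF521 cells was the highest of the 4. IFNL1, an interferon lambda gene, named after its values were seen, was lower at 65.9 and 36.3. In CTL cells IFNL1 stood at 14.1 with DMSO and 23.7 with SAG, the other direction. Of 59 replication-dependent histone genes 52 lay below 0, 5 were lower and the median was -0.16. The mRNAs of these genes end in a stem-loop in place of a poly-A tail, and the methods describe both poly-A selection and depletion of ribosomal RNA. In CTL cells, whose DMSO library stood apart, the median of the histones was 0.50 and 14 were higher, beside 6.95% of all genes. Of 32 NF-kB targets, interleukins and chemokines 3 were lower, C3, the chemokine CXCL8 (206 and 128, -0.68) and the chemokine CXCL2 (73.1 and 43.9), with a median of -0.18. Of 19 genes of MHC class I presentation 14 lay below 0 and the median was -0.20, which was -0.11 once GC content was adjusted for.

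Genes of cell division differed little. Of 48 mitosis genes 38 lay above 0, none was called, and the median log2 ratio was 0.11. MKI67, the proliferation marker Ki-67, stood at 2450.0 with DMSO and 3394 with SAG (0.47 [0.40, 0.54]), and TOP2A, a topoisomerase of dividing cells, at 11340.4 and 13946 (0.30 [0.26, 0.33]). Of 50 S phase and DNA replication genes none was called, with a median of 0.04. Of 20 G1 cyclins, kinases and inhibitors, CDK6 was the 1 called. Matrix lists were also near 0 in ZNF521 cells. The 37 collagen chains had a median of -0.09 and the 22 laminins and basement membrane genes one of 0.10, with no call in either, against -0.49 and -0.50 in CTL cells, whose DMSO library stood apart. COL6A3, a chain of type VI collagen (0.43 [0.39, 0.48]), and COL7A1, the anchoring fibril collagen (-0.40 [-0.52, -0.29]), went opposite ways under 1.5-fold. No member was called among 79 cytosolic ribosomal proteins (median -0.05), 60 oxidative phosphorylation subunits (-0.02), 33 cholesterol synthesis genes (0.08), 37 glycolysis and hypoxia-induced genes (0.05), 24 p53 targets (-0.02) and 31 immediate early genes (-0.07). Of 53 genes of the primary cilium, the site of SMO signalling, BBS5 (-0.78) and KIF17 (-0.76) were lower and the median was 0.05.

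**Figure D4:**
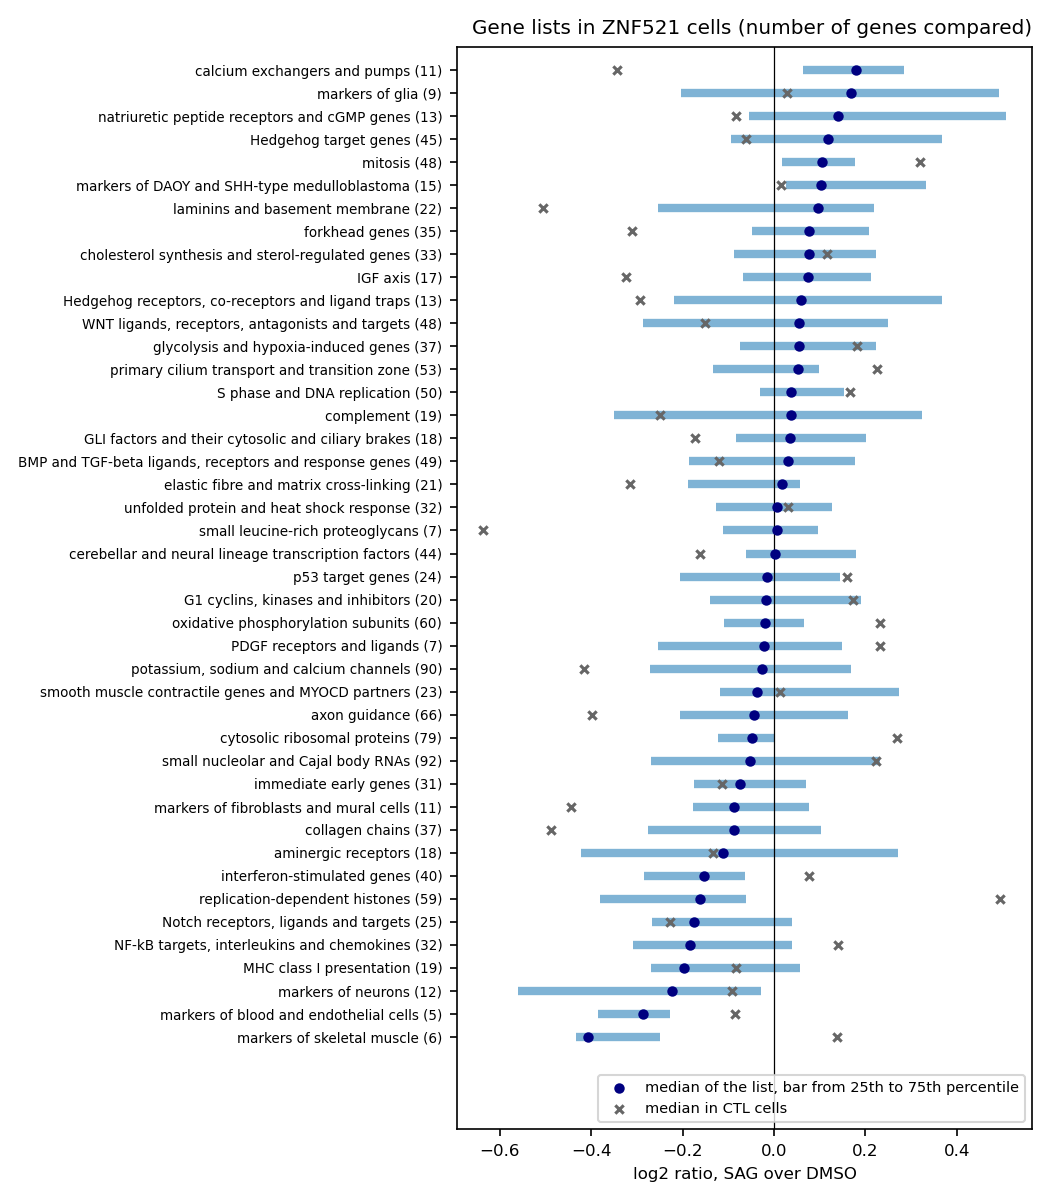
Median log2 ratio of SAG over DMSO in ZNF521 cells for 43 gene lists (dots, with bars from the 25th to the 75th percentile of the members and the number of genes compared in brackets) and the median in CTL cells (grey crosses). Medians in ZNF521 cells of lists with over 20 genes lie between -0.18 and 0.12, while those of CTL cells reach -0.50 for laminins and 0.50 for histones.

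DAOY and medulloblastoma markers were mostly present in both libraries. SOX2 (238 with DMSO and 312 with SAG), SOX9 (733 and 787), ZIC1 (241 and 273) and NES (1623 and 1732) were detected, but ATOH1, the defining factor of granule cell precursors, had 1 read in each of the 4 libraries. Of 16 markers of blood and endothelial cells 5 had enough reads to be compared, and their summed normalized count was 113 with DMSO and 95.3 with SAG. For 11 markers of fibroblasts and mural cells the sums were 27255 and 25569, with COL1A1 at 5241 and 5316 and COL3A1 at 9952 and 9351. For 12 compared markers of neurons they were 6401 and 5397, most of it NEFL, and for 9 of glia 375 and 368. For 6 compared markers of skeletal muscle the sums were 1147 and 976, most of it TNNT1, a troponin (953 and 828), the median log2 ratio was -0.41 and none was called. The muscle factor MYF5, of the same list, was at 0 in both libraries. The part of other cell types in the results was not tested.

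SAG ratios in ZNF521 cells also went with the composition of transcripts. From the tenth of genes of lowest GC content to the highest, the median log2 ratio went from 0.14 to -0.21, and from the shortest to the longest transcripts from -0.10 to 0.14. Higher genes had a median GC content of 45% and lower genes of 57.4%, against 48.2% over all genes compared. The share of genes called lower was 0.329% in the lowest bin and 4.48% in the highest, and that of genes called higher 1.25% and 0.395%. In CTL cells the median went from 0.46 to -0.32 over the same bins of GC content. After each ratio was taken relative to genes of the same GC content, 146 genes were higher and 190 lower, of which 119 and 151 were among those called before. GLI1, HHIP, PTCH1, PI15, MYOCD, ITGB3, NPR3 and PCK1 remained past the fold, while 11 of the 52 named genes called did not, among them C3 (-0.57), MAMDC4 (-0.39), CDK6 (0.47), DISP1 (0.56), TGFB2 (0.55), HIST1H2BL (-0.48) and KIF17 (-0.58). Called genes chosen after their values were seen, such as HMGA2, ITGA2, MAP2K6 and DUSP10, were not among the 52. Whether their calls remain with GC content adjusted is not given here. List medians moved too, from 0.11 to 0.03 for mitosis, from -0.18 to -0.12 for NF-kB targets and from -0.09 to -0.02 for collagen chains. Those of smooth muscle genes (0.06), the primary cilium (-0.05) and immediate early genes (0.02) turned their sign. The part of composition in single ratios was not tested.

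**Figure D5:**
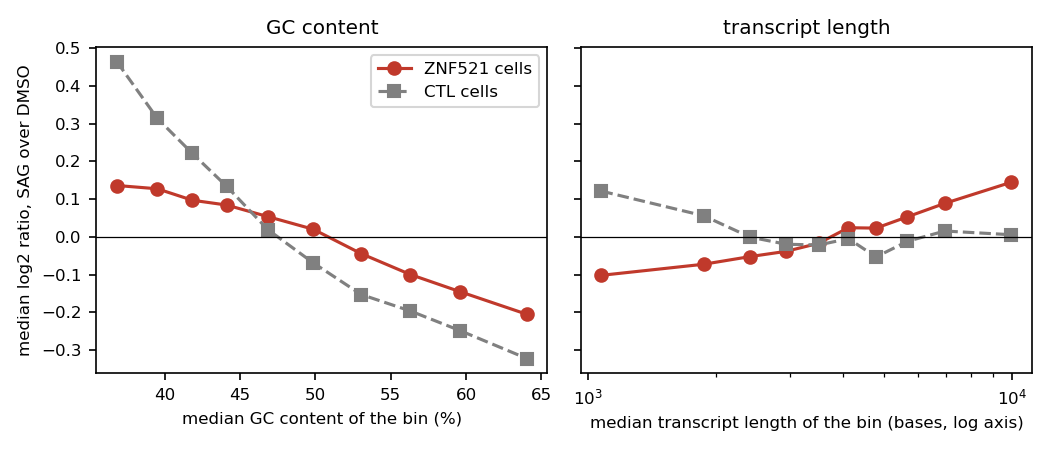
Median log2 ratio of SAG over DMSO (vertical axis) in 10 bins of transcript GC content (left) and transcript length (right, log axis), for ZNF521 cells (red circles) and CTL cells (grey squares). With rising GC content the median goes from 0.14 to -0.21 in ZNF521 cells and from 0.46 to -0.32 in CTL cells.

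Beside the response of CTL cells, which shares no library with it, that of ZNF521 cells was narrower. The CTL library with DMSO stood apart, so the width of the CTL response cannot be separated from a deviation of that library. In CTL cells 1054 genes were higher (6.95%) and 1198 lower (7.9%) of 15169 compared. Over 9161 genes with a mean of at least 200 in the 4 libraries, the SD of the log2 ratio was 0.187 in ZNF521 cells and 0.392 in CTL cells, and both ratios had a Pearson correlation of 0.354, given as a description across genes. Of the 166 genes higher in ZNF521 cells 33 were also higher in CTL cells, which is 19.9% of the former and 3.13% of the latter, and 6 were lower there. Of the 247 lower genes 65 were lower in CTL cells too (26.3% and 5.43%), and 8 were higher. Of the higher genes, 147 were also compared in CTL cells, with a median log2 ratio of 0.82 in ZNF521 cells and 0.28 in CTL cells. For the 236 such lower genes the medians were -0.84 and -0.42. These genes were chosen by their ZNF521 ratio, which by itself makes the ZNF521 medians the larger in size.

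The ratio of both SAG ratios, ZNF521 over CTL cells, compares the responses of these libraries, again with counting error only. Over 15527 genes it was at least 1.5-fold larger with an interval that left out 1 in 926 (5.96%) and smaller in 751 (4.84%). PTCH1 was among the larger, with a log2 of 0.77 [0.49, 1.05], as were GLI1 (0.74 [0.13, 1.36]), ITGB3 (0.97 [0.42, 1.53]), TENM2 (0.69 [0.30, 1.07]) and RNF152 (0.74 [0.04, 1.45]). For PI15 (-0.25 [-0.64, 0.13]), NPR3 (0.11 [-0.25, 0.47]), SLC8A3 (0.18 [-0.12, 0.48]), HHIP (0.69 [-1.06, 2.47]) and MYOCD (-0.22 [-1.67, 1.26]) the intervals held 0. In all, 23 of the 74 higher genes with a mean of at least 50 had a larger ratio in ZNF521 cells and 26 of the 101 lower ones a smaller ratio, counts that the choice of genes by the ZNF521 ratio raises. For GLI1, PTCH1, ITGB3, TENM2 and RNF152 alike, the ZNF521 library with DMSO was the lowest of the 4. By RT-qPCR in DAOY cells the study reports the other direction without SAG for GLI1 and PTCH1, with both raised by ZNF521. The larger ratios of GLI1, PTCH1, ITGB3, TENM2 and RNF152 go with these low DMSO levels. Taken as ratios between the kinds of cells, their SAG levels, such as 318 and 324 for GLI1 or 310 and 339 for TENM2, differed less than their DMSO levels.

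These differences also hold the CTL library with DMSO, which stood apart. The 12 genes whose ratio of ratios lay farthest from 1 had no call in ZNF521 cells, and in each the CTL library with DMSO was the highest or the lowest of the 4. TAF10, a subunit of general transcription complexes, stood at 59.7 with DMSO and 72.6 with SAG in ZNF521 cells, and at 312 and 59.8 in CTL cells. POLR2A, the largest subunit of RNA polymerase II, stood at 2113 and 2149.7 in ZNF521 cells, and at 8882 and 2368 in CTL cells. AMY2B, an amylase, stood at 1207 and 1035 in ZNF521 cells, and at 184 and 971 in CTL cells. GLI3 belongs to the same kind, at 625 and 652 in ZNF521 cells against 1349 and 653 in CTL cells, and so do SUFU (339 and 327 against 566 and 333) and PRKACA, a catalytic subunit of protein kinase A (916 and 946 in ZNF521 cells, log2 ratio 0.05, against -1.01 in CTL cells). With 1 library per condition, a difference between the kinds of cells and a deviation of that library cannot be told apart.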

How the data were processed

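DAOY cell RNA was read in 4 libraries, 1 per condition. Per the submitters' processing notes, the authors used STAR 2.7.0e for alignment (hg38, paired reads of 50 nt) and for counting reads per gene, and they deposited whole-number counts. The normalized signal values are these counts, which the authors scaled with a DESeq2 size factor for each library (0.972 and 1.19 for ZNF521 cells with DMSO and SAG). Annotation, strand setting and read filters are not given in the sources used here.

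Genes with at least 10 counts in either ZNF521 library were kept. The ratio of normalized values was given its exact 95% Clopper-Pearson interval from the counts, and the ratio of both SAG ratios the exact conditional interval of the odds ratio (Python 3.11.15, numpy 2.4.6, scipy 1.17.1). A gene at 0 in 1 library was set to a floor of 3 counts there. Calls needed 1.5-fold and an interval without 1. No test was run. The interval calculation was checked on simulated counts that hold counting error only, which says nothing on the spread between cultures. Alternatives were TMM factors (R 4.3.3, edgeR 4.0.16), total count scaling, other filters, folds and intervals, and adjustment in bins of GC content and, added after seeing the data, of GC content with length. GC content and length came from the longest GENCODE transcript, matched for 20305 of 20363 genes (99.7%), and promoters from RefSeq.

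Named genes were the 12 in each direction with a mean of at least 50 whose interval lay farthest from 1, genes named by the study or in earlier results, up to 4 members of each list, and 6 in each direction by the ratio of ratios. In a few places other called genes are named, chosen after their values were seen. Of the genes so named, 2 are not reported here. Members and lists were chosen with earlier results of these data known.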

Additional observations from a re-analysis of the deposited data

Results flagged for a closer look

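Values are given for 13 genes whose log2 ratio of SAG over DMSO was past 1.5-fold in opposite directions in the ZNF521 and the CTL cells. The difference between the kinds of cells was not tested, with 1 library per condition, and all are thinly counted, with normalized counts under 90 in every library. Lower in ZNF521 cells and higher in CTL cells were TYROBP, an adaptor of immune receptors (-1.03 and 2.82, with 43.2 and 21.1 against 7.04 and 49.6), HIST2H2AA3 (-1.04 and 0.90), NFYC-AS1 (-0.887 and 0.69), ATP6V1G2 (-0.795 and 0.89), TRIM61 (-0.725 and 0.91), HIST1H2BH (-0.661 and 0.90) and CASC9 (-0.621 and 0.87). Higher in ZNF521 cells and lower in CTL cells were TMEM75 (3.41 and -1.64, with 1.03 and 11.0 against 21.1 and 6.77), MUC3A, a mucin (1.30 and -1.94), SLC34A2, a phosphate transporter (1.30 and -0.88), CDH22, a cadherin (1.24 and -1.52), RASGRF2 (0.735 and -0.62) and ADRA1B, an adrenergic receptor (0.648 and -0.70).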

How the results depend on the processing

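Scaling by TMM factors or by total count moved all log2 ratios by -0.0015 and -0.0011, left 165 higher genes (all of them among the 166) and 251 or 250 lower ones, and kept the sign of all 43 list medians. The number of higher genes went from 166 to 99 with at least 50 counts, 75 at 2-fold and 89 with a 99% interval, and that of lower genes from 247 to 125, 84 and 125. Genes with a larger ratio in ZNF521 than in CTL cells went from 926 to 362 at 2-fold, and those with a smaller ratio from 751 to 169 at 2-fold and 487 with GC content adjusted. The median log2 ratio of MHC class I presentation went from -0.20 to -0.11 with GC content adjusted and -0.088 with GC content and length adjusted. With GC content adjusted, 35 of 43 list medians kept their sign, 32 with length as well, and 41 of the 52 named genes called kept their call in each. No result with a call turned its direction in these settings. No paired analysis was possible because ZNF521 cells have 1 library a side. A fit over both kinds of cells, with the kind as a block, concerns their shared response and was not run. Leaving out a library was not possible either. At these depths a gene with a mean normalized count of 200 or more had a 95% counting interval of about 0.15 on the log2 scale on either side at the median of such genes, and the spread between cultures is unknown.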

Other observations

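Among the genes past 1.5-fold whose mean was 50 or more, a few genes outside the lists can be named, all chosen after their values were seen. Among the higher ones were MAGI2, a scaffold of cell junctions, at 37.0 with DMSO and 74.2 with SAG, CLSTN2, a calsyntenin of synapses, at 163 and 247 (0.60), and SPON1, an extracellular matrix protein of the floor plate, at 53.5 and 89.4 (0.74). TEK, the angiopoietin receptor, stood at 63.8 and 114 (0.84). In CTL cells MAGI2 (68.4 and 54.1) and CLSTN2 (239 and 196) were lower with SAG, while SPON1 (81.4 and 94.7) and TEK (89.5 and 92.5) were higher. Among the lower ones were CHI3L1, a chitinase-like secreted protein, at 80.3 and 43.9 (-0.87), and NOD2, an innate immune sensor, at 92.6 and 56.5 (-0.71). KLF15, a transcription factor of metabolic genes, stood at 119 and 70.0 (-0.77), and SMOC1, a matricellular protein, at 117 and 65.8 (-0.83). In CTL cells CHI3L1 (45.2 and 28.2) and SMOC1 (107 and 67.7) were lower with SAG too, while NOD2 (73.4 and 77.8) and KLF15 (88.5 and 90.2) were not.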
